A study of Mus musculus with 12 samples.

Results

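The genes described here are those annotated to the sarcomere of striated muscle, the repeating contractile unit of the myofibril, in RNA from mouse dorsal skin. Members were the rows of the deposited gene table whose Gene Ontology text held "(sarcomere)", "(Z disc)" or "(myofibril)", with keratin genes left out, which gave 193 of 36400 genes. Of these, 49 held the first text, 133 the second and 43 the third, and 2 keratin genes were dropped by name. The level filter, a mean of at least 0.1 FPKM (fragments per kilobase of transcript, scaled to the depth of the library) over all libraries, was passed by 182 members, and 11, among them Myh13, Mybpc3, Ryr2 and Ryr3, were not tested.

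Control mice were painted with vehicle alone, a mix of acetone and olive oil, and the DNCB group with the hapten 2,4-dinitrochlorobenzene in that vehicle, at 1% for sensitization and 0.5% for challenge. The scMSC group received DNCB and, while the challenges went on, human umbilical cord mesenchymal stem cells (MSCs) injected subcutaneously in 100 µL. The scivMSC group received DNCB and, over the same period, these cells split into 50 µL given subcutaneously and 50 µL given through the tail vein. Cells were injected several times after sensitization, and DNCB was applied again after the last injection. The study describes no injection without cells for the DNCB group. All mice were female BALB/c mice with shaved backs, 6 weeks old when bought, and skin was taken at the end of the DNCB course. Each group held 6 mice, of which 3 libraries were sequenced. Whole dorsal skin was sequenced without sorting, so that the libraries held epidermis, dermis, fat and whatever muscle was cut with the sample. The table listed mouse genes, and whether reads of the injected human cells were assigned to them was not tested.

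In a sarcomere, thick filaments of myosin slide along thin filaments of actin, and the troponin and tropomyosin proteins on the thin filament let this happen only when calcium is released. Myosin heavy chains (Myh genes), troponins (Tnn genes) and myosin light chains (Myl genes) come as fast, slow or cardiac, and developmental isoforms, and the mix sets how quickly a fibre contracts. Mouse skin carries a thin sheet of skeletal muscle below the dermis, the panniculus carnosus, and the arrector muscles of the hair follicles are smooth muscle with actin and myosin genes of their own.

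The promoters of 4 genes are shown because their transcripts mark the muscle in these libraries or depart from it: Acta1, the skeletal muscle actin and the most abundant member, the fast troponin gene Tnnc2, the fast light chain gene Mylpf, and Myog, which encodes the transcription factor myogenin. Each window runs 5′ to 3′ from 250 bases before to 50 bases after the RefSeq start in GRCm38.p6, and capitals mark E-boxes (CANNTG, the site that MyoD family factors bind) and CArG boxes (the site of serum response factor).
Acta1 (chr8:123894726-123895025, minus strand): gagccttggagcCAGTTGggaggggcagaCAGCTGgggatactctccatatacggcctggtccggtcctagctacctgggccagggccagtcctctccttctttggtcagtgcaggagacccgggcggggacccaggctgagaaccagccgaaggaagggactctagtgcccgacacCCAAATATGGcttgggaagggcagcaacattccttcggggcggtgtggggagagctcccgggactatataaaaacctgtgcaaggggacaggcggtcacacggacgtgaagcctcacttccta
Tnnc2 (chr2:164779685-164779984, minus strand): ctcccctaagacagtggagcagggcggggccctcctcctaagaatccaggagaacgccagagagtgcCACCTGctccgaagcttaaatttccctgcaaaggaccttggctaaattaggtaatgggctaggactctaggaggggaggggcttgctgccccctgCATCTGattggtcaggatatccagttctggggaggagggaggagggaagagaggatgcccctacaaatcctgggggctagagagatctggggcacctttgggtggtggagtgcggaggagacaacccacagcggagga
Mylpf (chr7:127211358-127211657, plus strand): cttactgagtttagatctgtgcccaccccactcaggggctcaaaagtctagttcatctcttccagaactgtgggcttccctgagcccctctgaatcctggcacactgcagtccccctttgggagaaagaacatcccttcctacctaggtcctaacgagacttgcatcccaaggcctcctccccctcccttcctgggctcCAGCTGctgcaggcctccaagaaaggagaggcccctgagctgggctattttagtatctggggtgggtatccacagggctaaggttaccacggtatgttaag
Myog (chr1:134289754-134290053, plus strand): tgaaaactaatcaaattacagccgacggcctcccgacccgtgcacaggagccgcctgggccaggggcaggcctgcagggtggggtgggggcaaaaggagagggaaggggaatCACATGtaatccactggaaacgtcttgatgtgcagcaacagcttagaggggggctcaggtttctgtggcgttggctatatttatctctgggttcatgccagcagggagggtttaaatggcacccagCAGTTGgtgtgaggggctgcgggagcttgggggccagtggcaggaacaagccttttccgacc
Acta1, Tnnc2 and Myog held 2 E-boxes each and Mylpf held 1, and the only CArG box among the 4 windows was that of Acta1. MEF2 sites, the A and T rich motif of the MEF2 factors, were searched only as full matches to the consensus, and close variants were not counted. None of the 4 windows held a full match, although that of Myog holds the A and T rich stretch ctatatttat. Both strands were searched, matches could overlap, and 1 window was used per gene. A window was found for 147 of the 193 members, of which 73.5% held an E-box, 10.9% a MEF2 site and 10.2% a CArG box, against 72.2%, 3.26% and 1.57% of the 27025 windows in all. Among the 48 members that were also in one of the muscle gene lists described below, 83.3% held an E-box, 25% a MEF2 site and 12.5% a CArG box. A match describes letters in the window and not a bound site.

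The label was checked against the level of each member. Acta1, with a mean of 4845 FPKM over the 12 libraries, led the members, and 20 members had a mean of at least 100 FPKM, 145 a mean from 1 to under 100 and 28 a mean under 1. The leading members were muscle genes such as Myh1, Myh4, Tcap, Pygm, Des and Myl1, but also genes of most cells such as Actg1 (cytoplasmic actin), Hspb1 (a small heat shock protein) and Ctnnb1 (beta-catenin). The members are therefore not all skeletal muscle genes, and 58 of the 182 tested were in the muscle lists used here while 124 were not. Conversely, the Gene Ontology texts left out several sarcomere isoforms, including Tnnc2, Tnni2, Tnnt3 and Mylpf, which are named below as genes of the isoform lists and not as members.

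Totals ran from 63877153 to 75134001 estimated counts per library, and replicates correlated at 0.928 to 0.957 across the genes tested, which are not independent of each other. A call required an adjusted p (Benjamini-Hochberg, over all 21890 genes tested) under 0.05 in edgeR's quasi-likelihood test together with an absolute log2 fold change over 1. An exact permutation test of 3 against 3 libraries cannot give a two-sided p under 0.1, so such tests were not used for single genes.

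The first comparison asked what DNCB did to the skin. Members made up 10.5, 8.9 and 7.7% of the estimated counts in the 3 control libraries and 3.75, 4.11 and 4.35% in the 3 DNCB libraries. The groups did not overlap. Of the 182 members tested, 66 were called lower and 11 higher in DNCB than in control, against 7.57% and 6.59% of all genes tested, and the median log2 fold change was -0.59 against 0.02 over all genes. The 58 members in the muscle lists had 37 lower and 0 higher calls and a median of -1.68, whereas the 124 other members had 29 lower and 11 higher calls and a median of -0.23. In bulk RNA, fewer muscle fibres in the sample and less of these transcripts per fibre cannot be told apart.

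Markers of other cells moved with the same contrast, and their part in it was not tested. Of 9 adipocyte markers, 5 (Car3, Cfd, Cidec, Plin1 and Retn) were called lower in DNCB, and their summed level was 1779.8 to 2870.3 FPKM in control and 544 to 888 FPKM in DNCB. Most of that sum was Car3, which skeletal muscle also makes, and the other 8 summed to 529.7 to 676 and 220.3 to 413 FPKM. Adipoq overlapped between the groups, with 32.6 to 69.5 and 27.1 to 48.8 FPKM. Of 8 neutrophil markers, 8 were called higher, with sums of 121 to 208 and 2504 to 3453 FPKM. Of 8 fibroblast and matrix markers 4 were called higher, with sums of 389.9 to 574 and 2127 to 2470.1 FPKM. Of 8 smooth muscle markers, 2 of them members, 1 was called higher and 2 lower. Their sums overlapped at 141 to 184 FPKM in control and 137 to 156 FPKM in DNCB. These sums pool genes that rose with genes that fell. Acta2 had 19.7 to 21.9 FPKM in control and 53.5 to 55 in DNCB, while the members Lmod1 and Synm were the 2 called lower. Of 9 keratinocyte markers 2 were called higher and 2 lower, of 6 endothelial markers 1 higher, of 6 nerve and Schwann cell markers 1 lower, and of 8 macrophage markers none in edgeR. No marker of these lists was at the counting floor in every library. A reference of 9 skeletal muscle genes (Acta1, Ckm, Ttn, Neb, Tcap, Actn2, Ldb3, Ryr1 and Cacna1s) averaged 7.79 to 8.25 on the log2(FPKM + 0.1) scale in control and 6.29 to 6.54 in DNCB. When this average entered the model as a covariate, 0 members were called between DNCB and control. The covariate did not overlap between the 2 groups, so that it and DNCB cannot be told apart there.

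**Figure D1:**
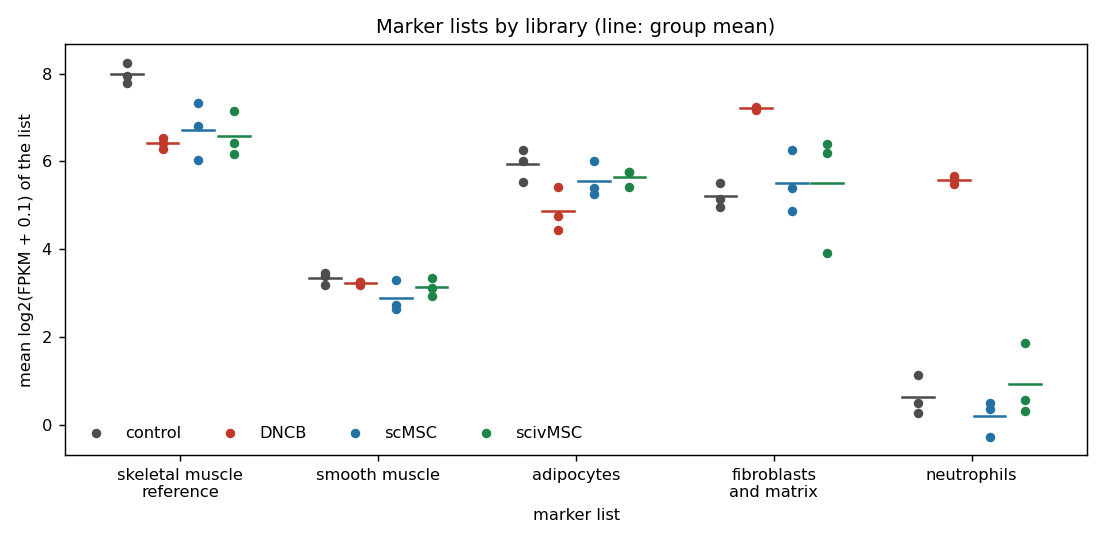
Mean log2(FPKM + 0.1) of 5 marker lists (x axis) in each of the 12 libraries, with points coloured by group and a line at each group mean. The skeletal muscle reference was at 7.79 to 8.25 in the 3 control libraries and from 6.02 to 7.32 in the 9 libraries of DNCB-treated mice, while the smooth muscle list overlapped between groups.

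Myosin heavy chain genes were described by fibre type. Myh1 (chr11:67200052-67224575, plus strand, GRCm38), the heavy chain of fast type IIX fibres, was the most abundant, with 2459, 1248 and 1336 FPKM in the control libraries, 588, 503 and 422 in DNCB, 812, 470.0 and 1640.2 in scMSC and 417, 396 and 1412 in scivMSC. Every DNCB library was below every control library, and the log2 fold change was -1.93 ± 0.59 (SE, adjusted p = 0.035). Myh4, the heavy chain of the fastest type IIB fibres, measured 714, 1078 and 849.9 FPKM in control and 175, 570.0 and 618 in DNCB, again without overlap. Its log2 fold change of -1.14 ± 0.56 (SE, adjusted p = 0.17) did not pass the test. The same held for Myh2, of type IIA fibres, with 398, 187 and 230.4 FPKM in control, 163, 125 and 122 in DNCB and a log2 fold change of -1.18 ± 0.59 (SE, adjusted p = 0.17). Myh4 ranged from 155 to 599 FPKM in scMSC and from 361 to 1040.4 FPKM in scivMSC, and Myh2 ranged from 73.8 to 291 and 51.1 to 211 FPKM in the same groups. For Myh1 the adjusted p was 0.079 to 0.11, at log2 fold changes of -2.05 to -1.56, without any 1 of control 1, DNCB 1, DNCB 2 and DNCB 3. These genes lie side by side on chromosome 11 and are close in sequence, so reads may have been assigned to the wrong copy. Myh1 and Myh2 also overlap genes on the other strand.

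Myh8, the perinatal heavy chain of the same cluster, was present at a low level, with 11.3, 7.74 and 6.87 FPKM in control and 3.69, 2.02 and 2.34 in DNCB, and it fell, with a log2 fold change of -1.88 ± 0.47 (SE, adjusted p = 0.014). The adjusted p was 0.054 to 0.055, at log2 fold changes of -1.78 to -1.72, without any 1 of DNCB 2 and DNCB 3. Its levels of 1.99 to 5.97 FPKM in scMSC and 2.26 to 5.86 FPKM in scivMSC lay below those of control without passing the test (adjusted p = 0.067 and 0.067). Myh3, the embryonic heavy chain, reached at most 0.589 FPKM in the 12 libraries. The slow heavy chain Myh7 reached at most 0.625 FPKM, in scivMSC replicate 3. It was at the counting floor of 3 fragments in each control library. The alpha cardiac chain Myh6 reached at most 0.286 FPKM, and Myh7b, a slow tonic chain, at most 0.414 FPKM. Fast heavy chains thus made up nearly all of the heavy chain transcripts in every group.

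**Figure D2:**
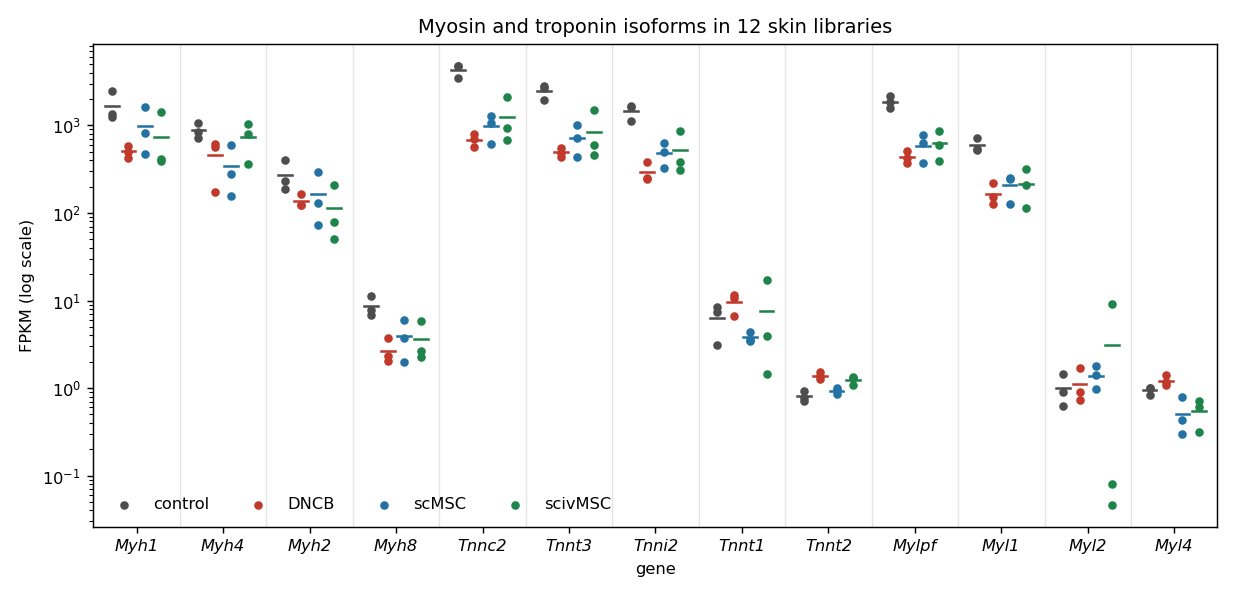
FPKM (log axis) of 13 myosin and troponin genes (x axis) in each of the 12 libraries, coloured by group, with a line at each group mean. The fast isoforms Tnnc2, Tnnt3, Tnni2, Mylpf and Myl1 show 3 control points above the 9 others, while Myh4, Tnnt1 and Myl2 overlap or scatter.

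The mix of fast heavy chains varied widely among the libraries of a group. Myh4 made up 19.9, 42.8 and 35.1% of the summed sarcomeric heavy chain FPKM in control, 18.8, 47.5 and 53% in DNCB, 38.8, 34 and 7.41% in scMSC and 68.8, 62.5 and 18.1% in scivMSC. All 4 groups overlapped. Myh1 took most of the remainder, from 27.6% in scivMSC replicate 1 to 78.4% in scMSC replicate 3. Developmental heavy chains made up 0.179% to 0.46% and slow and cardiac ones at most 0.0722% in any library.

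**Figure D3:**
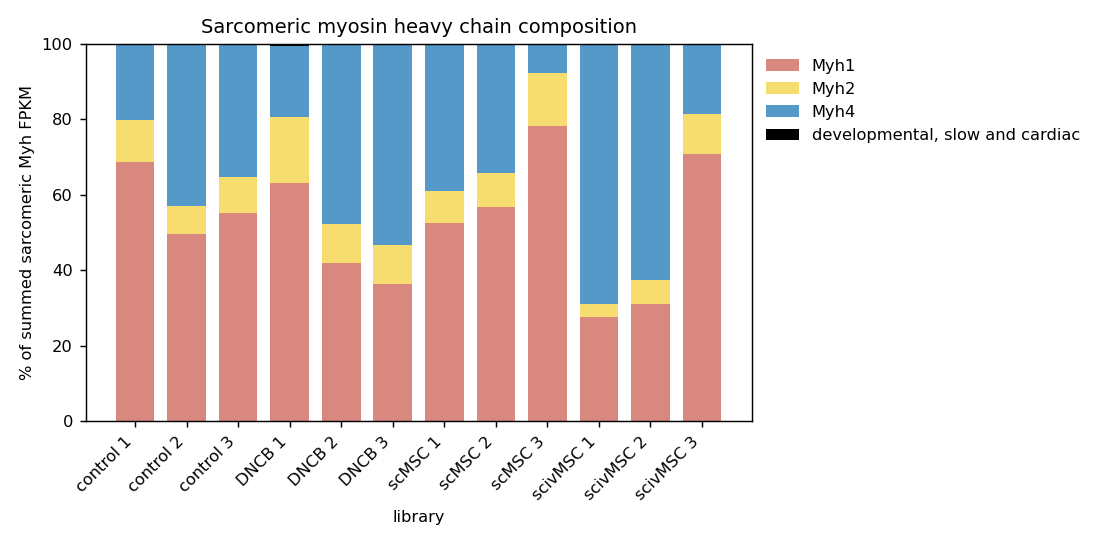
Share of the summed FPKM of the sarcomeric myosin heavy chain genes (y axis, %) taken by Myh1, Myh2, Myh4 and by the developmental, slow and cardiac genes together in each library (x axis). The Myh4 share runs from 7.41% in scMSC replicate 3 to 68.8% in scivMSC replicate 1, and replicates of 1 group differ widely.

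All 3 fast troponins fell in DNCB. Tnnc2, the calcium-binding subunit, measured 4721, 4784 and 3464 FPKM in control and 573, 695 and 794 in DNCB, 7.19-fold lower, with a log2 fold change of -2.85 ± 0.44 (SE, adjusted p = 0.0015). Tnni2, the inhibitory subunit, measured 1645, 1650.2 and 1114 FPKM in control and 254, 245 and 379 in DNCB, with a log2 fold change of -2.52 ± 0.42 (SE, adjusted p = 0.0021). Tnnt3, which anchors troponin to tropomyosin, measured 2805, 2687 and 1955 FPKM in control and 438, 484 and 555 in DNCB, with a log2 fold change of -2.53 ± 0.46 (SE, adjusted p = 0.0031). All 3 separated the DNCB libraries from the control libraries completely. Set against the muscle reference of its own library, Tnnc2 stood 3.96 to 4.28 log2 units above the reference in control and 2.87 to 3.09 in DNCB. Myh1 stood 2.34 to 3.02 above it in control and 2.18 to 2.91 in DNCB, so that the ratio of Tnnc2 to the reference did not overlap between these libraries and that of Myh1 did. Those ratios were not tested.

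In the MSC groups the fast troponins remained below control. Tnnc2 measured 1063, 609 and 1269 FPKM in scMSC and 939, 674 and 2108 in scivMSC. Against DNCB the log2 fold changes were 0.52 ± 0.41 (SE, adjusted p = 0.49) and 0.89 ± 0.41 (SE, adjusted p = 0.23), and against control -2.32 ± 0.43 (SE, adjusted p = 0.005) and -1.96 ± 0.42 (SE, adjusted p = 0.015). Thus Tnnc2 was called lower than control in both MSC groups, and no difference from DNCB passed the test. Tnnt3 (-1.97 and -1.70 on the log2 scale) and Tnni2 (-1.78 and -1.66) were also called lower than control in scMSC and scivMSC. In scivMSC the adjusted p of each exceeded 0.05 when some libraries were left out, while the fold changes stayed in the same direction. For Tnnc2 the adjusted p was 0.059, at a log2 fold change of -1.77, without scivMSC replicate 1. For Tnnt3 it was 0.06 to 0.11, at log2 fold changes of -1.68 to -1.39, without any 1 of control 1, control 2, scivMSC 1 and scivMSC 2. For Tnni2 it was 0.0505 to 0.087, at log2 fold changes of -1.61 to -1.38, without any 1 of control 1, control 2, scivMSC 1 and scivMSC 2.

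Slow and cardiac troponins were low. Tnnt1, the slow troponin T, measured 3.07, 7.39 and 8.45 FPKM in control, 11.6, 6.64 and 10.6 in DNCB, 3.56, 3.42 and 4.42 in scMSC and 1.44, 3.94 and 17.2 in scivMSC. Its groups overlapped apart from DNCB and scMSC. Tnnt2, the cardiac troponin T, measured 0.704, 0.778 and 0.926 FPKM in control and 1.36, 1.26 and 1.51 in DNCB, without overlap. The log2 fold change of 0.60 ± 0.17 (SE, adjusted p = 0.023) was below the fold required for a call, with an adjusted p of 0.061 to 0.097, at log2 fold changes of 0.49 to 0.61, without any 1 of control 1, control 2, DNCB 1 and DNCB 3. Tnnc1 and Tnni1, the slow troponins C and I, reached at most 1.6 and 1.43 FPKM, and Tnni3, the cardiac troponin I, at most 0.981 FPKM in any library. The slow and cardiac genes together made up 0.0572 to 0.163% of troponin FPKM in control, 0.624 to 1.16% in DNCB, 0.224 to 0.455% in scMSC and 0.172 to 0.495% in scivMSC. This share was not tested. Summed slow and cardiac troponins overlapped between control (5.25 to 10.7 FPKM) and DNCB (8.94 to 14.8), while summed fast troponins were 6532 to 9171 and 1264 to 1728 FPKM.

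Among the light chains, Mylpf, the fast regulatory chain, measured 1846, 2188 and 1591 FPKM in control, 377, 423 and 517 in DNCB, 625, 369 and 771 in scMSC and 604, 393 and 870.3 in scivMSC. Its log2 fold change was -2.29 ± 0.34 (SE, adjusted p = 0.0013) in DNCB, -1.85 ± 0.33 (SE, adjusted p = 0.0045) in scMSC and -1.76 ± 0.33 (SE, adjusted p = 0.0091) in scivMSC, each against control. Myl1, the fast essential chain and a member, measured 524, 719 and 538 FPKM in control and 128, 151 and 218 in DNCB, with a log2 fold change of -2.03 ± 0.39 (SE, adjusted p = 0.0043). Myl2, the slow and ventricular regulatory chain, measured 0.626, 0.896 and 1.45 FPKM in control and 0.0811, 0.0463 and 9.22 in scivMSC. Replicate 3 of scivMSC stood apart for Myl2, and the same library held the highest Tnnt1, Tnnc1, Tnni1 and Myh7 of the 12. Myl3 (slow ventricular) and Myl7 (atrial) reached at most 0.502 and 0.696 FPKM. Myl4, the embryonic and atrial chain, measured 0.999, 0.99 and 0.844 FPKM in control, 1.07, 1.42 and 1.16 in DNCB, 0.437, 0.297 and 0.783 in scMSC and 0.604, 0.318 and 0.711 in scivMSC. Both MSC groups lay below DNCB without overlap for Myl4, and neither difference passed the test in edgeR (-1.25 and -1.13 on the log2 scale, adjusted p = 0.061 and 0.11).

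Counted by isoform list, 6 of 8 fast isoforms tested were called lower in DNCB than in control, 5 of 8 in scMSC and 5 of 8 in scivMSC. Their median log2 fold changes were -2.16, -1.74 and -1.65. Of all genes tested, 7.57%, 4.2% and 3.35% were called lower and 6.59%, 5.12% and 3.5% higher in these comparisons. None of the 11 slow and cardiac isoforms was called in any of these 3 comparisons. In edgeR 2, 0 and 2 of them had an unadjusted p under 0.05, and DESeq2 called 1, Myh7, higher in DNCB and in scivMSC, against control libraries that were all at the counting floor. Of the 3 developmental isoforms, Myh8 alone was called in edgeR, in DNCB. DESeq2 called 1, 2 and 1 of these 3 in DNCB, scMSC and scivMSC against control, and 1 in each MSC group against DNCB. The 3 comparisons with control share the control libraries.

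Most structural proteins of the filaments fell as well in DNCB. In the thick filament and M band list, 7 of 10 genes were called lower in DNCB and 0 higher, with a median of -1.74. Of all genes, 7.57% were called lower and 6.59% higher. Mybpc1, the slow type myosin-binding protein C, fell with a log2 fold change of -1.77 and Mybpc2, the fast type, of -1.45. Myom1 and Myom2, which cross-link thick filaments at the M band, fell by the same measure (-2.0 and -1.86). The giant spring protein titin, Ttn, had 24.1 to 36.6 FPKM in control and 14.5 to 19.9 in DNCB, and its log2 fold change of -0.96 ± 0.27 (SE, adjusted p = 0.025) was below the fold required. Its adjusted p was 0.062 to 0.096, at log2 fold changes of -1.0 to -0.82, without any 1 of control 1, DNCB 1 and DNCB 3.

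In the thin filament list, 9 of 12 genes were called lower in DNCB, against 7.57% of all genes, with a median of -1.80. Acta1 measured 10668, 11236 and 7445 FPKM in control, 2167, 2407 and 3034 in DNCB, 3712, 2216 and 5241 in scMSC and 2539.8, 1863 and 5609 in scivMSC. The control libraries were above all 9 others, and the log2 fold change was -2.14 ± 0.45 (SE, adjusted p = 0.0063) in DNCB, -1.58 ± 0.44 (SE, adjusted p = 0.032) in scMSC and -1.71 ± 0.45 (SE, adjusted p = 0.03) in scivMSC. The tropomyosins Tpm1 and Tpm2 (-2.30 and -2.23) and the actin nucleators and length regulators Lmod2 and Lmod3 (-1.57 and -2.98) fell as well in DNCB, and so did Nrap (-1.81), which acts in myofibril assembly. With 1 library left out, the adjusted p of Acta1 was 0.068 to 0.094, at log2 fold changes of -1.55 to -1.40, without any 1 of control 1, control 2, scMSC 1 and scMSC 2 in scMSC and 0.064 to 0.11, at log2 fold changes of -1.68 to -1.40, without any 1 of control 1, control 2, scivMSC 1 and scivMSC 2 in scivMSC, and that of Lmod2 in DNCB was 0.0501 to 0.081, at log2 fold changes of -1.72 to -1.40, without any 1 of control 1, DNCB 1, DNCB 2 and DNCB 3. Actc1, the cardiac actin, Nebl and Tpm3, the slow tropomyosin gene that non-muscle cells also use, were the 3 not called.

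In the Z disc list, which holds the proteins that anchor the thin filaments, 15 of 25 genes were called lower and 0 higher in DNCB. The shares of all genes were 7.57% and 6.59%, and the median of the list was -1.66. Tcap, the telethonin that caps titin, measured 1417, 1323 and 1104 FPKM in control and 239, 267 and 315 in DNCB, 5.34-fold lower, with a log2 fold change of -2.42 ± 0.45 (SE, adjusted p = 0.0035). Actn3, the alpha-actinin of fast fibres, measured 269 to 353 FPKM in control and 87.5 to 139 in DNCB, and its log2 fold change was -1.57 ± 0.28 (SE, adjusted p = 0.0029). Des (desmin), Myoz1 (a calcineurin-binding protein of fast fibres) and Fhl1 fell too, with -1.66, -2.22 and -2.14 on the log2 scale. For Des the adjusted p was 0.055 to 0.058, at log2 fold changes of -1.62 to -1.61, without any 1 of DNCB 1 and DNCB 2. A large fall was that of Csrp3, the muscle LIM protein, with 42.7 to 80.2 FPKM in control and 9.77 to 12.3 in DNCB and a log2 fold change of -2.76 ± 0.65 (SE, adjusted p = 0.011). Against control, 15 of the 25 were called lower in scMSC and 14 in scivMSC, against 4.2% and 3.35% of all genes. None of the 25 was called between either MSC group and DNCB in edgeR, where 3 in each had an unadjusted p under 0.05, and DESeq2 called 3 in scMSC and 1 in scivMSC. The shares of all genes called against DNCB were 4.66% higher and 3.84% lower in scMSC, and 3.13% and 2.33% in scivMSC, so a count of 0 in 25 is near the background.

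**Figure D4:**
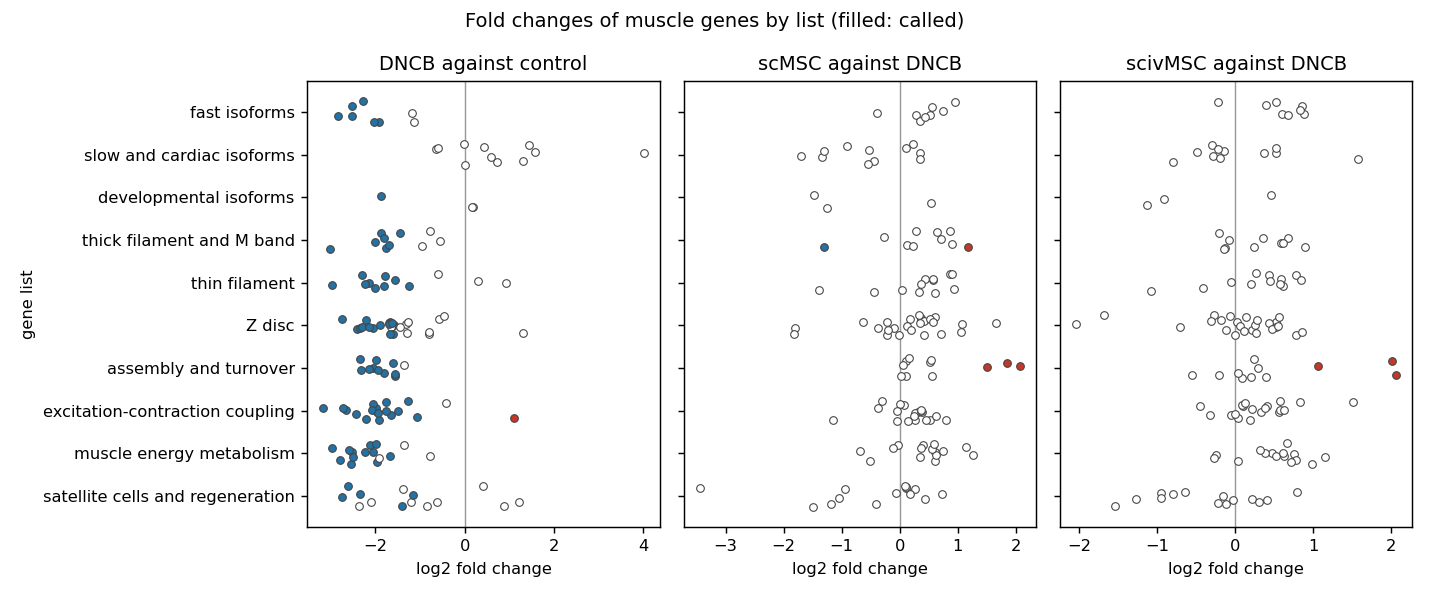
Log2 fold change (x axis) of each tested gene in 10 muscle gene lists (y axis) for DNCB against control, scMSC against DNCB and scivMSC against DNCB, with filled points for genes called. Calls below 0 fill the first panel, where only Atp2a2 is called above 0, and the other panels hold 5 and 3 filled points.

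The assembly and turnover list held 3 genes called between DNCB and both MSC groups, the most among the 10 muscle lists plotted by fold change. For comparison, 4.66% and 3.13% of all genes were called higher in scMSC and scivMSC than in DNCB. Of its 11 genes, 10 were called lower in DNCB than in control, against 7.57% of all genes. The 3 genes Fbxo32, Trim63 and Hspb8 were called higher in scMSC and in scivMSC than in DNCB. Fbxo32, a member (chr15:58175879-58214932, minus strand, GRCm38), encodes atrogin-1, the muscle ubiquitin ligase subunit that rises in wasting muscle. It measured 42.5, 30.9 and 24.2 FPKM in control, 9.65, 9.9 and 9.36 in DNCB, 34.4, 25.3 and 43.2 in scMSC and 37.3, 27.8 and 49.7 in scivMSC. The 3 DNCB libraries lay below the 9 others, which overlapped. The log2 fold change was -1.95 ± 0.28 (SE, adjusted p = 0.0013) in DNCB against control, 1.85 ± 0.28 (SE, adjusted p = 0.003) in scMSC against DNCB and 2.01 ± 0.29 (SE, adjusted p = 0.0048) in scivMSC against DNCB.

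Trim63 (chr4:134315120-134329629, plus strand, GRCm38), which encodes the ubiquitin ligase MuRF1 and was named after its values were seen, measured 38.3, 29.1 and 16.5 FPKM in control, 7.6, 7.73 and 8.81 in DNCB, 30.8, 25 and 44.7 in scMSC and 43.9, 25.3 and 31.5 in scivMSC. Its log2 fold changes were -1.99 ± 0.33 (SE, adjusted p = 0.0019) in DNCB against control, 2.07 ± 0.33 (SE, adjusted p = 0.0034) in scMSC against DNCB and 2.07 ± 0.33 (SE, adjusted p = 0.0065) in scivMSC against DNCB. Hspb8, a small heat shock protein that works with Bag3 in removing damaged filament proteins, measured 87.6 to 102 FPKM in control, 31.3 to 40.3 in DNCB, 93.9 to 113 in scMSC and 61.2 to 86.5 in scivMSC. Against DNCB it rose in both MSC groups, with log2 fold changes of 1.5 ± 0.18 (SE, adjusted p = 0.002) and 1.06 ± 0.18 (SE, adjusted p = 0.0088). Other genes of the list followed the filaments instead, with Klhl41 at -2.06 and Trim54 at -2.35 on the log2 scale in DNCB against control and no call against DNCB. Hspb7, another small heat shock protein of muscle, was the 1 gene of the list not called in DNCB against control (-1.35 ± 0.65 SE, adjusted p = 0.16).

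These 3 genes were set against the muscle of each library. Fbxo32 lay -3.19 to -2.83 log2 units from the muscle reference in control and -3.3 to -3 in DNCB, groups that overlapped, but -1.88 to -1.36 in scMSC and -1.5 to -1.2 in scivMSC. Trim63 lay -3.74 to -2.98 from it in control, -3.45 to -3.34 in DNCB, -1.86 to -1.37 in scMSC and -2.15 to -0.967 in scivMSC. With the reference as a covariate, whose range in DNCB lay within that of both MSC groups, the log2 fold change of Fbxo32 against DNCB was 1.60 ± 0.17 (SE, adjusted p = 0.0016) in scMSC and 1.84 ± 0.17 (SE, adjusted p = 0.0018) in scivMSC. That of Trim63 was 1.87 ± 0.29 (SE, adjusted p = 0.0042) and 1.98 ± 0.28 (SE, adjusted p = 0.0053), and that of Hspb8 1.48 ± 0.19 (SE, adjusted p = 0.0024) and 1.04 ± 0.19 (SE, adjusted p = 0.012). Markers of other cells also differed between these groups, with all 8 neutrophil markers called lower in each MSC group than in DNCB, 1 and 3 of 9 adipocyte markers called higher, 1 called lower in scivMSC, and sums without Car3 of 424 to 851 and 584 to 1043 FPKM for the latter list. Fibroblast and matrix markers were called lower in 3 of 8 cases in scMSC and 0 in scivMSC, and endothelial markers in 4 and 1 of 6. In scivMSC, all 8 of the former had negative fold changes against DNCB and 6 had an unadjusted p under 0.05 in edgeR. DESeq2 called 4 of the 8 there. The fibroblast and matrix sums were 2127 to 2470.1 FPKM in DNCB, 342 to 966 in scMSC and 167 to 1126 in scivMSC. Of 8 macrophage markers, edgeR called none and DESeq2 called 3 in each MSC group against DNCB. Their sums were 574 to 604 FPKM in DNCB, 121 to 297 in scMSC and 37.1 to 332 in scivMSC. Of 9 keratinocyte markers 1 was called higher and 2 lower in each MSC group than in DNCB, and of 8 smooth muscle markers 1 was called higher in scivMSC. Lor, the loricrin of the cornified layer, had 277 to 369.8 FPKM in DNCB, 602 to 1589.7 in scMSC and 1189 to 1805 in scivMSC. It was named outside the naming rule and does not stand for the 9 keratinocyte markers. The sums of those 9 were 13556 to 19766 FPKM in DNCB, 5370 to 9965 in scMSC and 9295 to 15960 in scivMSC. The part of these other cell markers in the change of Fbxo32, Trim63 and Hspb8 was not tested.

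**Figure D5:**
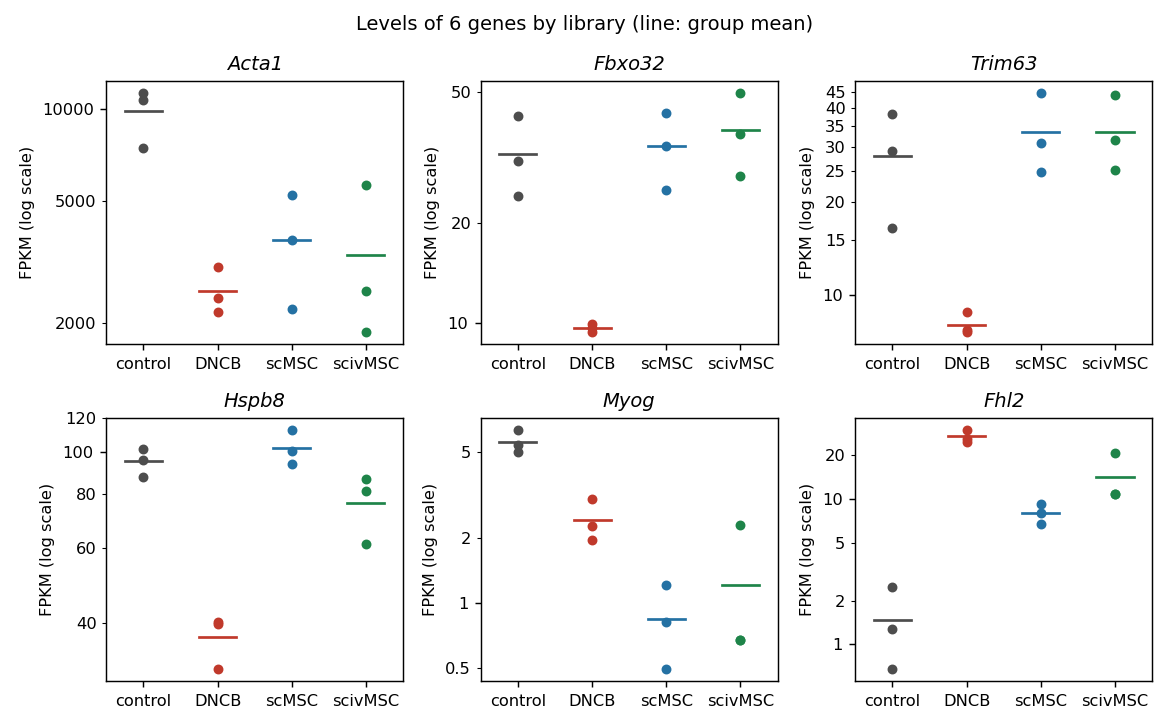
FPKM (log axis) of Acta1, Fbxo32, Trim63, Hspb8, Myog and Fhl2 in each library by group (x axis), with a line at each group mean. Fbxo32, Trim63 and Hspb8 are lowest in the 3 DNCB libraries and at 27.8 to 49.7, 25.3 to 43.9 and 61.2 to 86.5 FPKM in scivMSC, whereas Acta1 is highest in the 3 control libraries.

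Each MSC group was compared with DNCB to see how the inflamed skin differed. The DNCB group had no described injection without cells, so the cells, their solution and the injection itself cannot be told apart here. Of the 182 members, 11 were called higher and 7 lower in scMSC, against 4.66% and 3.84% of all genes, and 5 higher and 3 lower in scivMSC, against 3.13% and 2.33%, so the shares of members were near those of all genes. With 1 library left out, the count was lowest at 9 in scMSC, without DNCB replicate 2 or scMSC replicate 3, and at 3 in scivMSC, without DNCB replicate 2. It was also over 1.5 times lower without DNCB replicate 1 (11 in scMSC and 4 in scivMSC), DNCB replicate 3 (5 in scivMSC) and scivMSC replicate 1 (4 in scivMSC). The median log2 fold changes were 0.08 and 0.06. Fbxo32, Hspb1, Kcne1 and Timp4 were called higher and Cacna1c, Slc2a1 and Slc8a1 lower in both groups, which share the DNCB libraries. The 11 calls higher in scMSC included 7 of the 66 members called lower in DNCB than in control (among them Fbp2, Fbxo32, Hspb1, Myom2, Nos1 and S100a1), and the 5 in scivMSC included 3 (Fbxo32, Hspb1 and Lmod1). Both sides of this overlap use the same DNCB libraries, so low values there favour both calls. The overlap over all genes was not counted, and no reversal is read from it. Cacna1c, Kcne1 and Slc8a1 are named here after their values were seen. Of the filament proteins, Myom2 alone was called higher in scMSC (1.17 ± 0.34 SE, adjusted p = 0.044, but 0.066 to 0.16, at log2 fold changes of 0.83 to 1.24, without any 1 of DNCB 1, DNCB 2, DNCB 3, scMSC 1 and scMSC 3), and Acta1 was not, with 0.57 ± 0.44 (SE, adjusted p = 0.48) in scMSC and 0.43 ± 0.43 (SE, adjusted p = 0.62) in scivMSC.

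Among those members, Fbp2, the fructose bisphosphatase of muscle, measured 4.8, 8.22 and 10.8 FPKM in DNCB and 33.1, 22 and 25.5 in scMSC. Its log2 fold change was 1.77 ± 0.38 (SE, adjusted p = 0.013). S100a1, a calcium-binding protein of striated muscle, measured 39.6, 26.7 and 39.9 FPKM in DNCB and 77, 114 and 90.8 in scMSC, without overlap, which gave 1.44 ± 0.30 (SE, adjusted p = 0.011) on the log2 scale. Nos1, the neuronal nitric oxide synthase that muscle fibres also make, had 1.29, 1.56 and 0.867 FPKM in DNCB and 3.55, 1.55 and 5.09 in scMSC, groups that overlapped. The test gave 1.46 ± 0.42 (SE, adjusted p = 0.045) on the log2 scale, with an adjusted p of 0.075 to 0.16, at log2 fold changes of 1.05 to 1.67, without any 1 of DNCB 1, DNCB 2, DNCB 3, scMSC 1 and scMSC 3. Fhod3, a formin that builds actin filaments, measured 5.01, 3.54 and 3.49 FPKM in control, 3.01, 3.37 and 2.66 in DNCB, 8.14, 16.2 and 11.1 in scMSC and 5.65, 4.15 and 4.66 in scivMSC. The scMSC libraries were above all others (2.01 ± 0.28 SE, adjusted p = 0.0023, against DNCB). Lmod1, the smooth muscle leiomodin, was called lower in DNCB than in control (-2.88 ± 0.26 SE, adjusted p = 0.00034) and higher in scivMSC than in DNCB (1.64 ± 0.25 SE, adjusted p = 0.0055). Its levels were 13.9 to 19.2, 2.16 to 2.82, 3.41 to 6.94 and 6.87 to 9.73 FPKM in control, DNCB, scMSC and scivMSC, respectively. Timp4, an inhibitor of matrix proteases, had 0.495 to 0.949 FPKM in DNCB and 1.4 to 2.22 in scivMSC (1.31 ± 0.33 SE, adjusted p = 0.037). Its adjusted p was 0.053 to 0.13, at log2 fold changes of 1.09 to 1.51, without any 1 of DNCB 1, DNCB 2, DNCB 3, scivMSC 1, scivMSC 2 and scivMSC 3.

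Several members that non-muscle cells also use were called higher in DNCB. Fhl2, a LIM domain cofactor made in heart and in many other cells, had 0.676, 2.47 and 1.27 FPKM in control, 24.8, 30 and 26 in DNCB, 6.74, 9.29 and 7.96 in scMSC and 10.8, 20.9 and 10.8 in scivMSC. It rose 16-fold in DNCB (4.00 ± 0.45 SE, adjusted p = 0.00053), was lower in scMSC than in DNCB (-1.72 ± 0.41 SE, adjusted p = 0.02) and stayed above control in scMSC and scivMSC (2.28 and 3.07 on the log2 scale). Slc2a1, the glucose transporter GLUT1, measured 9.85, 11.4 and 25.9 FPKM in control, 86.1, 84.8 and 63.4 in DNCB, 14.9, 11.9 and 7.86 in scMSC and 15.5, 33.4 and 12.9 in scivMSC. Its log2 fold change was 2.15 ± 0.42 (SE, adjusted p = 0.0044) in DNCB against control, -2.73 ± 0.43 (SE, adjusted p = 0.0033) in scMSC against DNCB and -1.93 ± 0.42 (SE, adjusted p = 0.021) in scivMSC against DNCB. The adjusted p was 0.06 to 0.064, at log2 fold changes of -1.70 to -1.59, without any 1 of DNCB 2, scMSC 1 and scMSC 3 for Fhl2 in scMSC against DNCB and 0.065 to 0.085, at log2 fold changes of -1.86 to -1.69, without any 1 of DNCB 1, DNCB 2, scivMSC 1 and scivMSC 3 for Slc2a1 in scivMSC against DNCB. The actin-binding proteins Cald1 and Csrp2 (1.64 and 1.36) and the matrix protease Mmp2 (1.82) were also higher in DNCB than in control. Twf1 (twinfilin), Lman1 (a cargo receptor of the secretory pathway) and Grk3 (a receptor kinase) were lower in scMSC than in DNCB, with -1.04, -1.04 and -1.18 on the log2 scale. The adjusted p was 0.081 to 0.14, at log2 fold changes of 1.70 to 1.90, without any 1 of control 1, control 2, control 3, DNCB 1, DNCB 2 and DNCB 3 for Mmp2 and 0.058 to 0.074, at log2 fold changes of -1.17 to -0.97, without any 1 of DNCB 1, DNCB 3, scMSC 2 and scMSC 3 for Grk3. Hspb1 was lowest in DNCB instead, with 271 to 327 FPKM in control, 164 to 172 in DNCB, 352 to 495 in scMSC and 332 to 403 in scivMSC (-1.05 ± 0.17 SE, adjusted p = 0.0017, for DNCB against control).

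Of the 9 isoforms of smooth muscle and non-muscle cells, 1 was called higher (Myh9) and 1 lower (Myh14) in DNCB than in control. The shares of all genes were 6.59% and 7.57%. Myh11, the smooth muscle heavy chain, had 2.71 to 5.35 FPKM in control and 4.45 to 5.07 in DNCB (-0.08 ± 0.33 SE, adjusted p = 0.9). Myh9, a non-muscle heavy chain, had 11.2 to 18 FPKM in control and 39.1 to 42.1 in DNCB, and rose (1.28 ± 0.21 SE, adjusted p = 0.0018). Myh14, the non-muscle chain of many epithelia, had 17.9, 12.3 and 14.7 FPKM in control, 6.55, 4.82 and 7.65 in DNCB, 20.4, 34.9 and 35.4 in scMSC and 21.2, 13.3 and 19.2 in scivMSC. The DNCB libraries were below all others, with log2 fold changes of -1.43 ± 0.28 (SE, adjusted p = 0.0045) in DNCB against control, 2.29 ± 0.29 (SE, adjusted p = 0.002) in scMSC against DNCB and 1.51 ± 0.28 (SE, adjusted p = 0.011) in scivMSC against DNCB, the last at 0.052, at a log2 fold change of 1.35, without DNCB replicate 2. Myh10 was not called. Of the light chains in this list, Myl6 (61.3 to 69.3 FPKM in control and 95.1 to 102 in DNCB), Myl6b, Myl9, Myl12a and Myl12b were not called in any of the comparisons. Myl12a and Myl12b overlap and are near copies, so that their levels are uncertain.

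Against control, 48 of 182 members were called lower and 4 higher in scMSC, against 4.2% and 5.12% of all genes, and 54 lower and 3 higher in scivMSC, against 3.35% and 3.5%. Of the 66 members called lower in DNCB, 43 were also called lower in both MSC groups, and these 3 comparisons share the control libraries. This overlap was not counted over all genes, so nothing particular to the members is read from it. Among members above 1 FPKM, the 5 largest falls included Ank1 (an ankyrin), Jph2 (a junctophilin) and Casq1 (calsequestrin) in both groups. Jph2, which holds the sarcoplasmic reticulum to the surface membrane, had log2 fold changes of -2.49 and -2.35, and Casq1 of -2.40 and -2.25. Ank1 measured 8.21, 10.3 and 10 FPKM in control, 2, 2.08 and 3.11 in DNCB, 2.11, 1.09 and 2.04 in scMSC and 1.71, 1.47 and 3.29 in scivMSC. All control libraries were above the 9 others, and the log2 fold changes were -2.62 ± 0.35 (SE, adjusted p = 0.0014) and -2.29 ± 0.35 (SE, adjusted p = 0.0052) in the MSC groups. It overlaps small RNA and other genes on both strands. Mef2c, the transcription factor that drives many muscle genes, had 17.9, 16.5 and 11.7 FPKM in control and 1.75, 3.68 and 5.22 in scivMSC (-2.28 ± 0.44 SE, adjusted p = 0.0095). Synpo2l, a Z disc protein, had 30.4, 25.3 and 17.8 FPKM in control and 3.8, 3.03 and 8.7 in scivMSC (-2.40 ± 0.48 SE, adjusted p = 0.011). Cav3, the caveolin of muscle, and Synpo2, a partner of Z disc actin that smooth muscle also makes, were called lower in scMSC (-2.34 ± 0.55 SE, adjusted p = 0.014, and -2.61 ± 0.77 SE, adjusted p = 0.038). For Synpo2 the adjusted p was 0.059 to 0.11, at log2 fold changes of -2.71 to -2.10, without any 1 of control 2, control 3, scMSC 2 and scMSC 3. The scivMSC count of calls was 25 without its replicate 1, 27 without its replicate 2 and 31 without control replicate 1.

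Most genes that trigger contraction fell too. In the excitation-contraction coupling list, 17 of 19 genes were called lower in DNCB, 17 in scMSC and 16 in scivMSC, all against control. The shares of all genes were 7.57%, 4.2% and 3.35%. None of the 19 was called between an MSC group and DNCB in edgeR. There, 1 in scMSC and 5 in scivMSC had an unadjusted p under 0.05, and DESeq2 called 0 and 1. Against DNCB, 4.66% of all genes were called higher and 3.84% lower in scMSC, and 3.13% and 2.33% in scivMSC. A count of 0 in 19 is therefore near the background. Pvalb, the parvalbumin that binds calcium in fast fibres, measured 1447, 1823 and 1034 FPKM in control, 112, 228 and 209.5 in DNCB, 382, 199 and 364 in scMSC and 438, 279.7 and 816 in scivMSC. It was 8.97-fold lower in DNCB than in control (-3.16 ± 0.47 SE, adjusted p = 0.0013). Atp2a1, the calcium pump of fast fibres, fell with a log2 fold change of -1.97 ± 0.30 (SE, adjusted p = 0.0014). Casq1, the calcium store of the sarcoplasmic reticulum and a member, fell by the same measure with -2.66 ± 0.41 (SE, adjusted p = 0.0015), and Tmem38a, a channel of that store, with -1.95 ± 0.26 (SE, adjusted p = 0.0009). Atp2a2, the pump of slow fibres and of most other cells, was named after its values were seen, since it alone was called higher, with 20.3, 24.8 and 34 FPKM in control and 61.7, 65.1 and 65.4 in DNCB (1.10 ± 0.19 SE, adjusted p = 0.0022).

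In the muscle energy metabolism list, 12 of 15 genes were called lower in DNCB, 13 in scMSC and 13 in scivMSC, all against control. The shares of all genes were 7.57%, 4.2% and 3.35%. Ckm, the muscle creatine kinase, measured 2009.8, 2159.5 and 1472 FPKM in control and 371, 475 and 529.9 in DNCB, with a log2 fold change of -2.23 ± 0.35 (SE, adjusted p = 0.0017). The glycolytic enzymes Eno3 and Pgam2 and the glycogen phosphorylase Pygm, a member, fell as well, with -2.51, -2.55 and -2.06 on the log2 scale.

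In the list of satellite cell and regeneration genes, 5 of 14 tested were called lower in each of the 3 groups given DNCB than in control. The shares of all genes were 7.57% in DNCB, 4.2% in scMSC and 3.35% in scivMSC. Mstn, the myostatin that limits muscle growth, measured 54, 68.3 and 104 FPKM in control, 8.17, 12.5 and 17.5 in DNCB, 16, 5.18 and 15.2 in scMSC and 9.5, 12.7 and 14.8 in scivMSC. Its log2 fold changes against control were -2.74 ± 0.42 (SE, adjusted p = 0.0015), -2.81 ± 0.43 (SE, adjusted p = 0.0021) and -2.77 ± 0.42 (SE, adjusted p = 0.0052). Myf6 (-2.35), the myogenic factor of mature fibres, and Chrnb1 (-1.39), a subunit of the acetylcholine receptor at the endplate, fell in DNCB. Myod1, a member that commits cells to muscle, had 6.91, 8.1 and 5.57 FPKM in control and 1.48, 1.15 and 1.93 in DNCB. The groups did not overlap, but the difference did not pass the test (-2.37 ± 0.85 SE, adjusted p = 0.064). Myog, named after its values were seen, had 5.4, 6.34 and 4.98 FPKM in control, 3.05, 1.97 and 2.27 in DNCB, 0.82, 0.497 and 1.22 in scMSC and 0.678, 0.674 and 2.3 in scivMSC. Its log2 fold change against control was -2.89 ± 0.53 (SE, adjusted p = 0.0049) in scMSC and -2.34 ± 0.52 (SE, adjusted p = 0.016) in scivMSC, and against DNCB it was -1.5 ± 0.51 (SE, adjusted p = 0.082) and -0.95 ± 0.50 (SE, adjusted p = 0.3). The scivMSC call against control had an adjusted p of 0.057 to 0.059, at log2 fold changes of -2.04 to -2.03, without any 1 of scivMSC 1 and scivMSC 2. With the muscle reference as a covariate, Myog was lower in scMSC (-1.97 ± 0.37 SE, adjusted p = 0.0087) and in scivMSC (-1.40 ± 0.36 SE, adjusted p = 0.042) than in DNCB.

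The comparison of the 2 routes of MSC injection called none of the 182 members, against 0.00457% of all genes, in edgeR. At an unadjusted p under 0.05 there were 12, DESeq2 called 1, and the smallest adjusted p of a member was 0.565 in edgeR. Replicates differed widely, as the muscle reference shows with 6.81, 6.02 and 7.32 in scMSC and 6.43, 6.17 and 7.14 in scivMSC, and the test does not show that the routes act alike. In scivMSC replicate 3, which had the highest muscle reference of its group, fibroblast and macrophage markers were also the lowest of the 12 libraries, with a summed level of 167 FPKM for fibroblasts and 37.1 FPKM for macrophages.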

How the data were processed

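Total RNA of dorsal skin was sequenced in 12 libraries, 3 in each of the control, DNCB, scMSC and scivMSC groups, and deposited as 1 table of 36400 mouse genes. For each library the table held FPKM values, which the authors scaled by transcript length and library, and whole-number estimated counts deposited beside them. Of the counts from 1 to 18, 38.9% to 41.2% were multiples of 4, and 1 fragment was therefore taken as about 4 counts, with a counting floor of 3 fragments (12 counts) per library. Intervals and floors of this kind cover counting error only. The submitters' processing notes name Bowtie 0.12.2, HISAT2 2.0, StringTie 1.3.0 and the mm8 build, without their roles, whereas the coordinates in the table fit GRCm38 (all 193 members overlap their gene in GENCODE M21). Whether counting used strand is not given in the sources used here, and 88 members overlap a gene on the other strand and 52 a gene on the same strand, so reads of such pairs cannot be told apart.

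Genes averaging 0.1 FPKM or more over the 12 libraries (21890) entered the test, in which their estimated counts were compared as supplied with edgeR 4.0.16 (R 4.3.3; quasi-likelihood F-test, TMM scaling with factors of 0.887 to 1.06, 1 model of the 4 groups, common biological coefficient of variation 0.42). Calls needed an adjusted p (Benjamini-Hochberg, all genes tested) under 0.05 and a log2 fold change beyond 1 in either direction. Values in the text are FPKM, and errors are the SE of the fit. The titles tell the libraries of a group apart by a number only, and each library was taken as a separate mouse. On that reading, p-values measure the spread between mice of 1 experiment. The replicate numbers were not used as pairs. The code was tested on simulated counts with known changes. Their spread between libraries was smaller than that fitted here, so this checks the code and not its error rates on these data. Alternatives were DESeq2 1.42.0, limma 3.58.1 on log2(FPKM + 0.1) or log2(FPKM + 1), other filters and scalings, counts divided by 4, a replicate block, each library left out in turn, and the mean of 9 muscle reference genes as a covariate.

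Named genes were all isoforms of the myosin and troponin lists, the 5 called members with the largest change per direction and comparison at a mean of at least 1 FPKM, and the 4 or 5 most abundant genes of each other list. Members, lists and the naming rule were chosen with earlier results of these data known. Promoter windows came from RefSeq (GRCm38.p6). Gene descriptions and the pathway text of the table were not used beyond the Gene Ontology text of the member rule. Some genes that the rule would name are not reported here.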

Additional observations from a re-analysis of the deposited data

How the results depend on the processing

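Of 115 comparisons of single genes given here, 98 had an adjusted p under 0.05, and 76 of these kept it in every setting run other than the covariate; the library removals that ended the others are given beside them in the report. Outside those removals and the covariate, 13 lost it, among them the scivMSC against control calls of Acta1, Tnnc2, Tnni2 and Tnnt3 when the 6 libraries compared were fitted alone, and Nos1, Myom2 and Timp4 under limma on log2(FPKM + 0.1). Without 1 library, 60 to 76 members were called in DNCB against control, 9 to 18 in scMSC against DNCB, 3 to 11 in scivMSC against DNCB, 37 to 59 in scMSC against control, 25 to 76 in scivMSC against control and 0 to 0 between the MSC groups. Limma on log2(FPKM + 1) called 9 members in scMSC and 4 in scivMSC against DNCB, the 6 libraries fitted alone called 26 in scivMSC against control, and DESeq2 called 1 between the MSC groups. Members with the text "(sarcomere)" alone, a smaller set, gave 21 calls in DNCB against control, 3 and 2 in scMSC and scivMSC against DNCB, and 13 and 16 in scMSC and scivMSC against control. With the muscle reference as a covariate, 70 of the 115 comparisons lost an adjusted p under 0.05. Of the members called against DNCB without it, 12 in scMSC and 7 in scivMSC were also called with it. Those not called with it were Lman1, Myom2, Nos1, Slc8a1, Timp4 and Twf1 in scMSC, and Cacna1c in scivMSC. In the same fit 0, 1 and 0 members were called in DNCB, scMSC and scivMSC against control, and log2 fold changes of DNCB against control turned positive for Des (0.19), Hspb7 (1.64), Lmod2 (0.50), Mybpc1 (0.11), Myh1 (0.65), Myh2 (1.35), Myh8 (0.15), Myh11 (0.11), Myod1 (0.55), Nrap (0.024) and Ttn (0.10), where the covariate and the group cannot be told apart. The value of Myh11, near 0, was also 0.10 with library size alone, was 0.15 and 0.12 with limma, and ran from -0.36 to 0.026 with 1 control or DNCB library left out, and Acta1 in scivMSC against DNCB ran from -0.22 (without scivMSC replicate 3) to 0.74. Deviations of samples with the same replicate number correlated at -0.21 to 0.15, so the numbers did not pair the samples, and with the replicate number as a block 78 members were called in DNCB against control, 17 and 9 in scMSC and scivMSC against DNCB, 54 and 60 in scMSC and scivMSC against control and 0 between the MSC groups.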

Other observations

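Ankrd1 and Mybph were chosen after their values were seen. Ankrd1, a titin-binding stress protein and a member, had 1.01, 1.01 and 1.35 FPKM in control, 2.86, 1.44 and 5.15 in DNCB, 0.477, 0.586 and 1.57 in scMSC and 0.364, 0.32 and 1.52 in scivMSC. In edgeR its log2 fold change against DNCB was -1.82 ± 0.70 (SE, adjusted p = 0.12) in scMSC and -2.04 ± 0.71 (SE, adjusted p = 0.11) in scivMSC, and with the muscle reference as a covariate -2.29 ± 0.57 (SE, adjusted p = 0.029) and -2.55 ± 0.58 (SE, adjusted p = 0.026). Mybph, a myosin-binding protein of the thick filament list, had 13.3, 20.4 and 26.7 FPKM in control, 12.7, 14.8 and 12.3 in DNCB, 5.02, 3.27 and 7.74 in scMSC and 9.44, 10.4 and 14.2 in scivMSC. It was called lower in scMSC than in DNCB (-1.30 ± 0.31 SE, adjusted p = 0.021; adjusted p = 0.053 to 0.071, at log2 fold changes of -1.33 to -1.09, without any 1 of DNCB 1, DNCB 2, scMSC 1 and scMSC 2), its value in scivMSC against DNCB was -0.20 ± 0.31 (SE, adjusted p = 0.77), and the 2 MSC groups differed by -1.09 ± 0.31 (SE, adjusted p = 0.56), scMSC minus scivMSC.

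Relative to the muscle reference, Mef2c lay at -4.23 to -3.89 log2 units in control, -3.85 to -3.42 in DNCB, -4.86 to -4.33 in scMSC and -5.54 to -4.25 in scivMSC, and DNCB overlapped neither control nor either MSC group. Mstn lay at -2.49 to -1.09, -3.24 to -2.4, -3.62 to -2.8 and -3.24 to -2.5 in the same order. These ratios were not tested.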
